A study of Mus musculus with 24 samples.

Results

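The genes of the matrix metalloproteinases (Mmp), of the disintegrin metalloproteinases (Adam), of their relatives with thrombospondin repeats (Adamts and the Adamts-like Adamtsl) and of the tissue inhibitors of metalloproteinases (Timp) were followed in differentiating muscle cells. They were chosen by name, as every row of the deposited table whose gene name starts with Mmp, Adam, Adamts, Adamtsl or Timp and a number. This gave 77 of 28109 genes, namely 23 Mmp, 26 Adam, 19 Adamts, 5 Adamtsl and 4 Timp genes. The rule uses names and no measured value, but it was set with earlier results of these data known.

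Messenger RNA was sequenced from C2C12 cells, a mouse myoblast line labelled as strain C3H, and from PMs, primary myoblasts from young wild-type mice labelled as strain C57/B6. Both were transfected with siControl, a control siRNA that the labels name siLuc, or with siTead1/4, pools of siRNAs against the transcription factors Tead1 and Tead4. RNA was taken from undifferentiated cells on the day after transfection (day 0) and after 3 and 6 days in low horse serum, in 2 biological replicates for each of 12 groups (24 libraries). All groups were transfected, no group was left untreated, and C2C12 cells are 1 line while the labels do not say whether PM replicates came from different animals, so p-values measure the spread between these libraries.

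Mmp, Adam and Adamts enzymes hold a zinc ion in their active site and are made as inactive precursors. Mmp enzymes cut collagens and other matrix proteins, membrane Adam enzymes shed the outer parts of receptors and growth factors, Adamts enzymes trim procollagens and cut proteoglycans such as versican, and Adamtsl proteins lack the protease part. Timp proteins bind and block these enzymes. In muscle they are known for the remodelling of the matrix around satellite cells and for the steps that lead to myoblast fusion.

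Tead proteins bind the MCAT element, known from promoters of muscle genes, and its core CATTCC or GGAATG was looked for on both strands in the 250 bases before the start sites that RefSeq gives for 48 of the 77 members (53 promoters, build GRCm38.p6). It was present in 3 promoters (5.66%), against 12.6% of all 32851 promoters of the same length. These 3 belonged to Timp1, to 1 of the 3 starts of Adam19 and to Adamts13. Of the 5 members called after silencing below, only Timp2 and Adamtsl5 had a promoter in the table, and they are shown beside Timp1. Capitals mark the core, 5′ to 3′ on the strand of the gene.
Timp1 (chrX:20869916-20870165, plus strand): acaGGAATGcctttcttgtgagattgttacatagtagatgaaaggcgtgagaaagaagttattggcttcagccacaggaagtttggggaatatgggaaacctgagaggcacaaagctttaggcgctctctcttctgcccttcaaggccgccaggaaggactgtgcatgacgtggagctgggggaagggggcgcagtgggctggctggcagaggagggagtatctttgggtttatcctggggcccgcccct
Timp2 (chr11:118355412-118355661, minus strand): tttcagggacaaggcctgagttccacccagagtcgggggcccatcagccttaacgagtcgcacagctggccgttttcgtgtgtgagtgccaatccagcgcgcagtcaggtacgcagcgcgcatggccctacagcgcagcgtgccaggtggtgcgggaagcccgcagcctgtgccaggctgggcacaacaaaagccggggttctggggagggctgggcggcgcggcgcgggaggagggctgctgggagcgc
Adamtsl5 (chr10:80348449-80348698, minus strand): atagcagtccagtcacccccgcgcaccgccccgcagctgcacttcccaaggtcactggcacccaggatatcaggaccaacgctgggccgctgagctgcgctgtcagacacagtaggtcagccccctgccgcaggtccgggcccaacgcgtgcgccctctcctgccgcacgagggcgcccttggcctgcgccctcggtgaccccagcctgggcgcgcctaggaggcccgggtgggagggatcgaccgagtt
The core of Timp1 starts 247 bases before its start site. These letters were not found in the windows of Timp2 and Adamtsl5, which says nothing of other sites of these genes.

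Counts on genes per library ranged from 25453830 to 52784510. Counts were fitted with edgeR for each cell type, and called means that the Benjamini-Hochberg adjusted p was below 0.05 while the log2 fold change, given with its standard error (SE), was over 1 in size. Levels are given as CPM, the counts scaled by library size with TMM factors over the 24 libraries. Of the members, 49 passed the filter on low counts in C2C12 cells, 53 in PMs and 57 in the fit of all libraries that compares the cell types. The siTead1/4 and siControl libraries did not overlap for 17, 26 and 24 of the 49 at days 0, 3 and 6. In PMs this held for 33, 23 and 22 of the 53. The share of all genes without overlap was not counted, so groups without overlap are a description and no test, and these counts say nothing particular of the family. Tead4 was lower in every siTead1/4 library than in the siControl libraries of its cell type and day, while Tead1 in C2C12 cells at day 6 was at 70.6 and 77 CPM against 76 and 136 CPM with overlapping groups, and at day 0 at 28.8 and 4.5 CPM in the 2 siTead1/4 libraries. The siTead1/4 replicates of C2C12 cells were the least alike (SD of their log2 difference 0.418 to 0.504 over genes, 0.212 to 0.357 in the other groups). All 6 myoblast markers were above 1 CPM in each group. Sums of the 5 endothelial, 5 macrophage and 4 adipocyte markers reached at most 16.1, 6.18 and 1.69 CPM in any library, and that of 5 Schwann cell markers ran from 4.83 to 399 CPM. Both ends of that range were libraries of C2C12 cells, where at most 2 of the 5 had a mean above 1 CPM in any group. In bulk RNA a change in the share of a kind of cell and a change of RNA per cell cannot be told apart.

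Inhibitors and a membrane collagenase led the levels. Of the 77 members, 47 exceeded a mean of 1 CPM in at least 1 group. At day 0 in siControl C2C12 cells the highest levels per length were those of Timp1 at 481 ± 144 CPM per kb, Timp2 at 196 ± 3.03, Mmp14 at 125 ± 5.31, Adam9 at 57.5 ± 4.05 and Timp3 at 39.7 ± 9.31 CPM per kb (SD, n = 2 each). In PMs they were Timp1 at 135 ± 4.89, Timp2 at 117 ± 0.834, Mmp14 at 43.1 ± 0.448, Adam9 at 35.2 ± 1.28 and Adam10 at 35.1 ± 2.55 CPM per kb (SD, n = 2 each). Mmp14 is a membrane-bound collagenase that also activates pro-Mmp2, and Adam10 is a sheddase of Notch and cadherins. The same 4 genes led in both cell types, while Timp3 was at 0.649 ± 0.00167 CPM per kb in PMs. Adam9 and Adam10 in PMs do not differ beyond their SD. The collagenases Mmp1a, Mmp1b, Mmp8 and Mmp13 failed the filter in both cell types, as did 18 further members, 10 of them Adam genes, and 3 of the 77 had no count at all. The shape of the whole family over the libraries is given in the map of log2 levels.

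**Figure D1:**
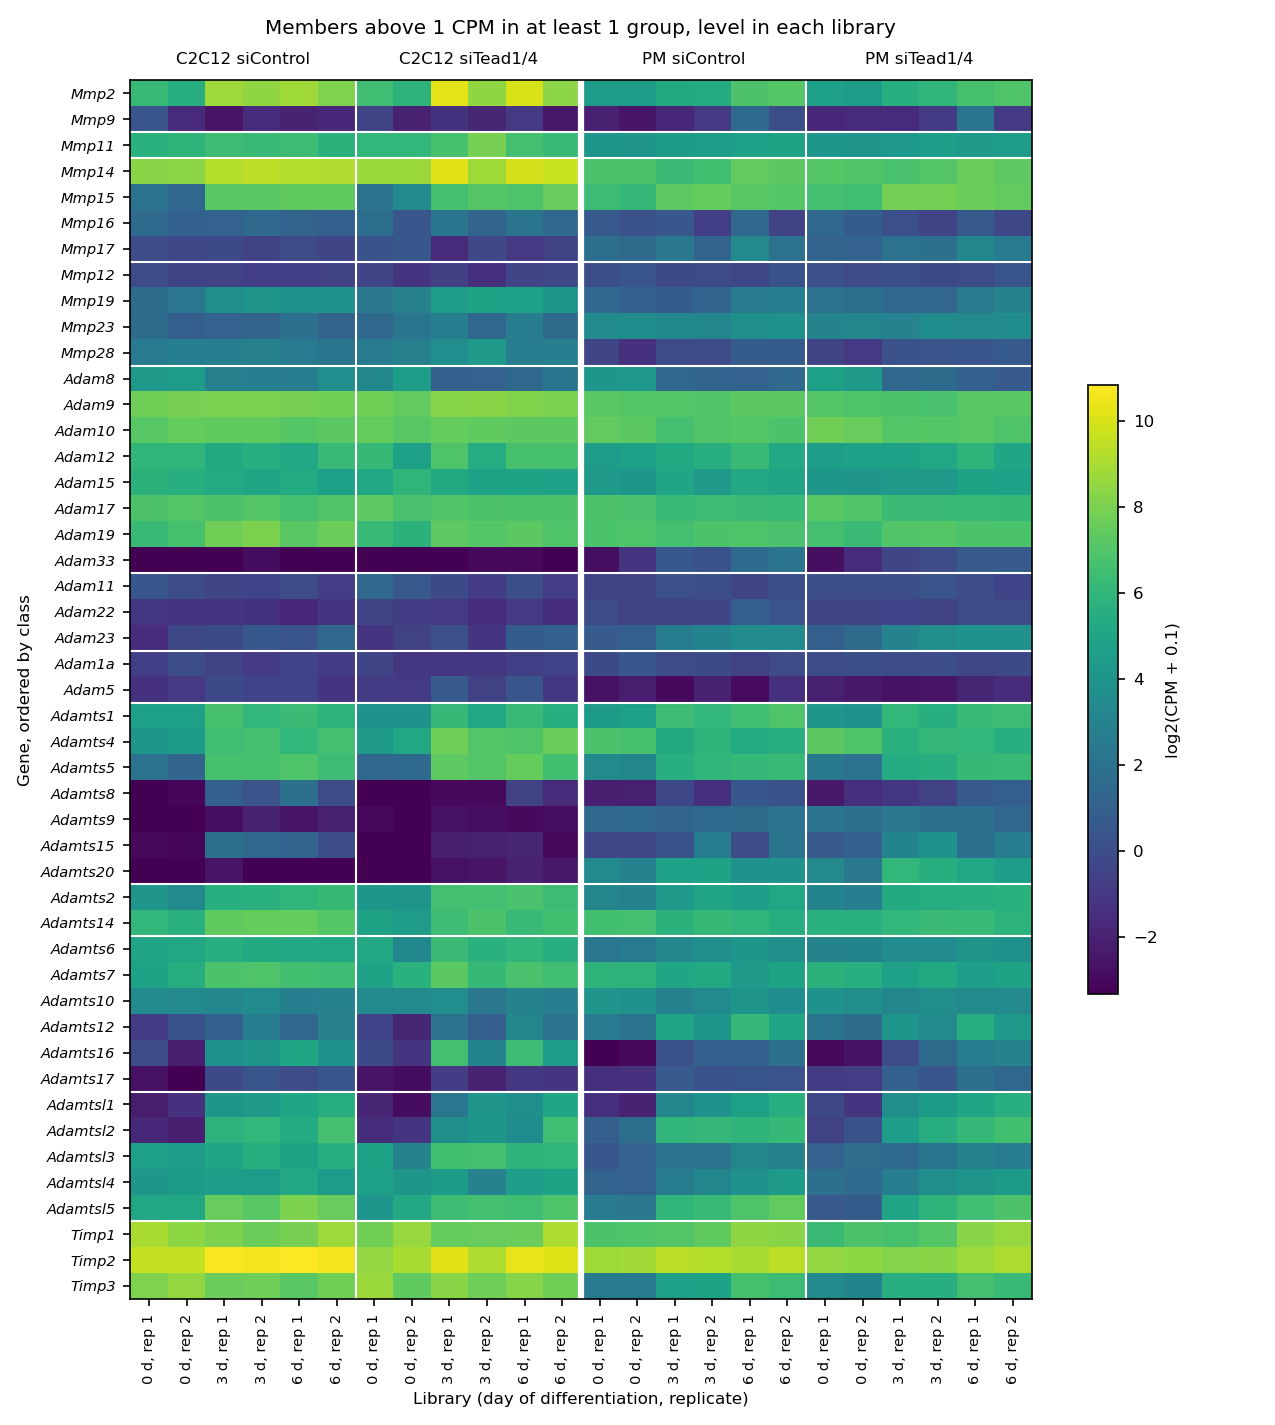
Level of the 47 members above 1 CPM in at least 1 group, as log2(CPM + 0.1), in each of the 24 libraries, with genes in rows ordered by class (white lines) and libraries in columns ordered by cell type, siRNA, day and replicate. Timp1, Timp2 and Mmp14 are bright in every column, Adamts9 and Adamts20 are dark in all C2C12 libraries, and Adamtsl1, Adamtsl2 and Adamtsl5 brighten from day 0 to day 6 in siControl columns of both cell types.

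Tead1/4 silencing changed few members, and every change called by edgeR with the settings above was a fall. The inhibitor gene Timp2 fell in PMs at day 3, and Adamts5 and Adamtsl5 fell in PMs at day 0. The aggrecanase and versicanase genes Adamts8 and Adamts15 were lower in silenced than in control C2C12 cells at day 3. They had risen in the controls from near 0 at day 0 and stayed near that level after silencing. With these settings no member was called up at any day in either cell type, and none was called at day 6. Other settings called some rises in both cell types, and several of those in PMs are named below. In C2C12 cells at day 3 they included Mmp11, which missed the threshold with the settings above (log2 fold change 1.09). It was called without the filter on low counts and with all 24 libraries in one fit. Summed over Mmp3, Mmp7, Mmp10 and Mmp11, with almost all counts from Mmp11, levels were 43.8 and 104 CPM per kb in the siTead1/4 libraries. The siControl libraries were at 36.2 and 31.8 CPM per kb, so 1 silenced library carried most of the rise. Other settings also called Mmp28 and Adamts2 there.

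Timp2 (ENSMUSG00000017466, chromosome 11 of mm9 from 118162383 to 118217054, minus strand) encodes the inhibitor that takes part with Mmp14 in the activation of pro-Mmp2. In PMs at day 3 it was at 298 and 318 CPM in siTead1/4 libraries against 668 and 618 CPM in siControl libraries (log2 fold change -1.07, SE 0.15, edgeR adjusted p = 0.00243). Both silenced libraries were lower than both controls by far more than replicates differed. Myotube markers summed to 27995 to 30808 CPM in these silenced libraries against 34789 to 36429 CPM in the controls and myoblast markers to 6877 to 7790 CPM against 8705 to 8734 CPM, both without overlap, and their part in the fall of Timp2 was not tested. It was the only member called there, 1 of 53 against 1.2% of all genes called down and 2.1% called up. Its call was kept in each of the 9 alternative fits, with a log2 fold change between -1.13 and -1.01. At day 0 Timp2 was at 371 and 343 CPM against 455 and 459.9 CPM (log2 fold change -0.37, SE 0.15, edgeR adjusted p = 0.159), and at day 6 at 435 and 549.7 CPM against 527 and 683 CPM (-0.30, edgeR adjusted p = 0.475). Neither day passed the threshold, and the groups overlapped at day 6 but not at day 0. In C2C12 cells the libraries were at 372 and 519 CPM against 754 and 771 CPM at day 0, 1163 and 540.2 against 1675 and 1503 at day 3 and 1302 and 1107 against 1817 and 1519 at day 6. Every silenced library was below the controls of its day, with log2 fold changes of -0.77, -0.92 and -0.47 that missed the threshold (edgeR adjusted p = 0.455, 0.237 and 0.892). The effect at day 3 differed between the cell types by -0.16 (PM minus C2C12, standard error 0.37, edgeR adjusted p = 0.929), which is less than its standard error, so the call in PMs alone does not show a stronger effect there.

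Timp3, whose protein binds to the matrix and also blocks Adam17 and Adamts enzymes, moved the other way below the fold threshold. In PMs at day 0 it was at 10.4 and 8.26 CPM against 5.28 and 5.3 CPM (log2 fold change 0.81, SE 0.18, edgeR adjusted p = 0.0218). The day 3 values were 46 and 47.8 CPM against 25.5 and 29.1 CPM (log2 fold change 0.77, SE 0.16, edgeR adjusted p = 0.0188). Both silenced libraries exceeded both controls on each day, and at day 6 the values of 102 and 78.4 CPM and 106 and 82.5 CPM overlapped. In C2C12 cells Timp3 gave log2 fold changes of -0.17, 0.41 and 0.55 at days 0, 3 and 6, and none passed (edgeR adjusted p = 0.949, 0.744 and 0.892). The gene lies within Syn3 and shares 1733 exon bases with it on the other strand, and the kit kept no strand. Timp1 and Timp4 passed at no day. The lowest edgeR adjusted p was 0.376 for Timp1, at 106 and 135 CPM against 134 and 164 CPM in PMs at day 3, and 0.511 for Timp4, which stayed under 0.7 CPM in every library.

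In C2C12 cells at day 3, 2 of 49 members were called down and 0 up, where 1.08% and 0.19% of all genes were called. Adamts15 (ENSMUSG00000033453, chromosome 9 of mm9 from 30706740 to 30730037, minus strand) was at 0.132 and 0.139 CPM in siTead1/4 libraries and at 3.7 and 2.51 CPM in siControl libraries (log2 fold change -4.51, SE 0.69, edgeR adjusted p = 0.0244). Adamts8 (ENSMUSG00000031994, chromosome 9 from 30750147 to 30771423, plus strand), the gene beside it, had 1 and 1 counts against 78 and 56 counts. This is a ratio of summed counts of 59.1 (95% interval 16 to 493) in favour of siControl, an interval that covers counting error only (fitted log2 fold change -5.77, SE 1.05, edgeR adjusted p = 0.0376). Both genes had at most 1 count in every C2C12 library at day 0 and appeared at day 3 in siControl cells, while in siTead1/4 cells they stayed near the day 0 level. Both calls were lost without either siControl replicate and that of Adamts8 also without either siTead1/4 replicate, fits in which 1 group has 1 library. At day 6 Adamts15 was at 0.173 and 0.0222 CPM against 2.2 and 0.902 CPM (-4.07, edgeR adjusted p = 0.119) and Adamts8 at 0.605 and 0.222 CPM against 3.64 and 0.835 CPM (-2.48, edgeR adjusted p = 0.406). Their groups did not overlap there either, as for 24 of the 49 members tested, and DESeq2 called Adamts15. Sums of the 5 myotube markers were also lower at day 3, at 4397 to 5553 CPM in siTead1/4 libraries of C2C12 cells against 12525 to 15346 CPM in siControl libraries, and their part in these falls was not tested.

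In PMs neither gene passed this test at day 3. Adamts15 at day 3 was at 8.37 and 15 CPM in siTead1/4 libraries against 1.09 and 6.29 CPM in siControl libraries (1.65, edgeR adjusted p = 0.219). Both silenced libraries were the higher ones, and this rise was called without the filter, with a replicate block and without siControl replicate 2. Adamts8 was at 0.365 and 0.598 CPM against 0.729 and 0.278 CPM (-0.07, edgeR adjusted p = 0.956). The silencing effect at day 3 differed between the cell types for both, by 6.14 on the log2 scale for Adamts15 (PM minus C2C12, standard error 1.19, edgeR adjusted p = 0.0176) and by 5.68 for Adamts8 (standard error 1.23, edgeR adjusted p = 0.0348). Both calls were lost without siControl replicate 1 and without either siTead1/4 replicate, and that of Adamts8 also without siControl replicate 2. These 2 were the only members of 57 called for such a difference at day 3, where 1.25% of all genes were. At days 0 and 6 edgeR called 0 members, where 0.00591% and 0.0354% of all genes were called, with 2 and 6 members at an unadjusted p under 0.05 and 0 and 2 called by DESeq2, the latter Adamts15 and Adamts17.

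In PMs at day 0, 2 of 53 members were called down and 0 up, where 1.1% and 1.5% of all genes were called. Adamtsl5 (ENSMUSG00000043822, chromosome 10 from 79801855 to 79811157, minus strand), which encodes a secreted protein of the Adamts-like family, was at 1.46 and 1.74 CPM against 5.81 and 4.84 CPM (log2 fold change -1.74, SE 0.34, edgeR adjusted p = 0.0132). Adamts5 (ENSMUSG00000022894, chromosome 16 from 85858415 to 85901370, minus strand), an aggrecanase and versicanase, was at 5.08 and 3.73 CPM against 9.9 and 8.79 CPM (log2 fold change -1.10, SE 0.19, edgeR adjusted p = 0.00796). The silenced libraries of both genes lay below both controls. Myotube markers summed to 5794 to 7428 CPM in the silenced and to 7198 to 8020 CPM in the control libraries, and the 6 fibroblast markers to 756 to 766 CPM and 477 to 518 CPM without overlap. Their part in these falls was not tested. The call of Adamtsl5 was lost without either siControl replicate, and that of Adamts5 without siControl replicate 1, without siTead1/4 replicate 2 and with all 24 libraries in one fit. Adamtsl5 was lower on average at each later day too, at 30.6 and 59 CPM against 64.3 and 73.3 CPM at day 3 in PMs and at 85.1 and 98.5 CPM against 186 and 143 CPM in C2C12 cells, without passing the threshold (edgeR adjusted p = 0.197 and 0.266). Adamts5 did not pass at day 3, at 41 and 48.5 CPM against 46 and 63 CPM with overlapping groups (-0.29, edgeR adjusted p = 0.347). In C2C12 cells Adamts5 was at 157 and 132 CPM against 104 and 104 CPM at day 3, where both silenced libraries were the higher ones without passing the test (0.45, edgeR adjusted p = 0.607).

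A few other members lay near the threshold. Adamtsl2 in PMs at day 0 was at 0.587 and 1.05 CPM against 1.82 and 3.38 CPM (log2 fold change -1.63, SE 0.45, edgeR adjusted p = 0.0531) and was called by DESeq2, with its size factors, without the filter and with a replicate block. Adamts14, a procollagen N-proteinase, was at 51.9 and 49.99 CPM against 93.1 and 98.5 CPM in PMs at day 0 (log2 fold change -0.92, SE 0.18, edgeR adjusted p = 0.0143), just under a 2-fold fall, and at 28.4 and 21.3 CPM against 65.7 and 50.4 CPM in C2C12 cells at day 0 (log2 fold change -1.23, SE 0.24, edgeR adjusted p = 0.0582). The groups did not overlap in either cell type, and DESeq2 called it in C2C12 cells. Mmp15, a membrane-type Mmp, was at 236 and 235 CPM against 161 and 178 CPM in PMs at day 3 (log2 fold change 0.47, SE 0.12, edgeR adjusted p = 0.0417), a rise below the fold threshold. Adam8, an Adam known from leukocytes and osteoclasts, was at 1.9 and 2.06 CPM against 7.08 and 6.92 CPM in C2C12 cells at day 3 (log2 fold change -1.84, SE 0.46, edgeR adjusted p = 0.0884). DESeq2 called it, as did the fits without the filter, with a replicate block and of all 24 libraries. Adamts20, a versicanase with at most 5 counts in any C2C12 library, was at 65.3 and 49 CPM against 27.2 and 28.6 CPM in PMs at day 3 (log2 fold change 1.03, SE 0.30, edgeR adjusted p = 0.0639). DESeq2 called this rise, as did the fits without the filter and without siTead1/4 replicate 2.

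**Figure D2:**
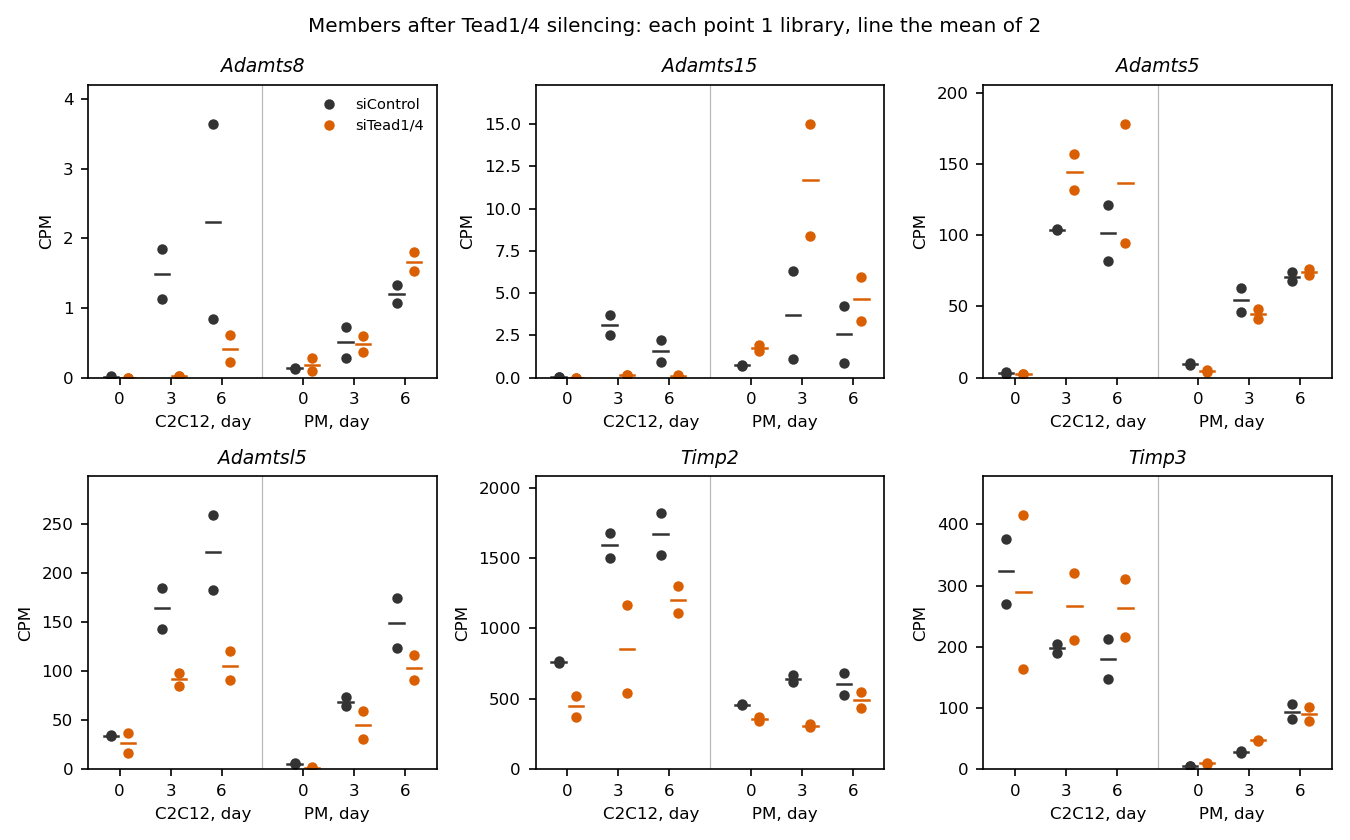
CPM of the 5 members called after Tead1/4 silencing and of Timp3, in C2C12 cells (left of each panel) and PMs (right) at days 0, 3 and 6, with 1 point per library, black for siControl and orange for siTead1/4, and a line at the mean of 2. Adamts8 and Adamts15 rise in control C2C12 cells and stay near 0 at day 3 after silencing, and both silenced Timp2 points of PMs at day 3 lie below both controls.

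At the remaining days edgeR called 0 members. In C2C12 cells this held at day 0, where 0.137% of all genes were called up and 0.301% down and 5 members had an unadjusted p under 0.05, and at day 6, where 0.0131% and 0.0327% of all genes were called and 8 members had such a p. In PMs it held at day 6, where 0.465% and 0.279% of all genes were called and 7 members had such a p. DESeq2 called Adamts14 in the first, Adamts15 in the second and Adamts17 and Adamts20 in the third, where a replicate block called rises of Adamts16 and Adamts17 (1.29, edgeR adjusted p = 0.354 and 1.44, edgeR adjusted p = 0.0583 without the block). The main gelatinase gene Mmp2 was at 1218 and 362 CPM against 435 and 359.8 CPM in C2C12 cells at day 3 (0.97, edgeR adjusted p = 0.54), and 1 silenced library was over 3 times the other. The silenced libraries lay far apart for Mmp14 too, at 1169 and 449 CPM against 616 and 672 CPM (0.31, edgeR adjusted p = 0.79). Mmp9, Adam10, Adam12, Adam17 and Adam19 passed at no day in either cell type. The nearest to it was Adam19 in PMs at day 0, at 99.5 and 79.4 CPM against 113 and 124 CPM (-0.42, edgeR adjusted p = 0.0775).

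Differentiation of the siControl cells changed far more of the family, and many of the called genes were Adamts and Adamtsl genes that rose. In C2C12 cells 20 of 49 members were called up and 3 down at day 3 (16% and 12.7% of all genes), and 20 up and 3 down at day 6 (17.1% and 14%). Of the risers, 19 were shared by both days. In PMs 20 of 53 were called up and 3 down at day 3 (17.5% and 14.9%), and 24 up and 4 down at day 6 (20.2% and 15.3%), with 17 risers shared by both days. The median log2 fold change of the members was 0.46 and 0.39 at days 3 and 6 in C2C12 cells and 0.40 and 0.95 in PMs, against values between -0.01 and 0.03 over all genes. The choice between scaling within a cell type and over the 24 libraries moves log2 fold changes by up to 0.0944. Members near 0 at day 0, such as Adamts8 and Adamts15 in C2C12 cells, could pass the filter only through the groups in which they were high, so that counts and medians over the tested members are descriptions. Days 3 and 6 share their day 0 libraries. Myotube marker sums went from 18.5 to 63.8 CPM at day 0 to 12235 to 15381 CPM at day 6 in C2C12 cells and from 7198 to 8020 CPM to 28723 to 33505 CPM in PMs. Fibroblast marker sums went from 789 to 1298 CPM to 2395 to 2448 CPM in C2C12 cells, where 3 of the 6 were at 0 at day 0, and from 477 to 518 CPM to 1003 to 1033 CPM in PMs. Among them Dcn was at 1.04 and 0.675 CPM and then 201 and 36.1 CPM in C2C12 cells and at 1.23 and 2.14 CPM and then 64.3 and 40.2 CPM in PMs, and Thy1 was at 0 to 0.0472 CPM in C2C12 libraries and at 11.9 to 84.0 CPM in PMs. Their part in the changes below was not tested.

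All 5 Adamtsl genes were called up at both days in PMs, where 17.5% and 20.2% of all genes were at days 3 and 6. In C2C12 cells 3 of the 5 were called up at both days, where 16% and 17.1% of all genes were. Adamtsl1 went from 0.113 and 0.302 CPM at day 0 to 17.6 and 19.4 CPM at day 3 and 33.6 and 45 CPM at day 6 in C2C12 cells (log2 fold change 7.42, SE 0.79, edgeR adjusted p = 6.84e-05 at day 6). In PMs it went from 0.297 and 0.169 CPM to 8.53 and 15 and 26.5 and 48.1 CPM (log2 fold change 7.19, SE 0.56, edgeR adjusted p = 1.95e-06 at day 6). Every differentiated library lay far above both day 0 libraries in each cell type. Adamtsl2, a secreted partner of fibrillin and of latent Tgfb binding proteins, went from 0.197 and 0.124 CPM to 55.6 and 65.6 and 41.2 and 101 CPM in C2C12 cells (8.55, edgeR adjusted p = 0.000194 at day 3 on the log2 scale), and from 1.82 and 3.38 CPM to 63.7 and 67.8 and 57.9 and 70.1 CPM in PMs (4.63, edgeR adjusted p = 3.36e-06). Adamtsl5 went from 34.5 and 34 CPM to 259 and 183 CPM at day 6 in C2C12 cells and from 5.81 and 4.84 CPM to 124 and 175 CPM in PMs (log2 fold changes 2.66 and 4.74, edgeR adjusted p = 0.000265 and 7.57e-07). Adamtsl3 and Adamtsl4 rose in PMs alone by the test, from 1.27 and 2.11 CPM to 8.54 and 7.27 CPM and from 2.16 and 2.11 CPM to 14.3 and 21.2 CPM at day 6. Of this pair only Adamtsl4 was called for the difference between the cell types.

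Among the 7 proteoglycanases, 5 were called up at both days in C2C12 cells (16% and 17.1% of all genes), where Adamts9 and Adamts20 failed the filter. Adamts8 and Adamts15 could pass it there only through the groups in which they were high. In PMs 5 of 7 were called up at day 3 and 3 of 7 at day 6 (17.5% and 20.2% of all genes). Adamts4 was called down at both days in PMs (14.9% and 15.3% of all genes). Adamts5 rose from 3.91 and 2.35 CPM to 104 and 104 CPM at day 3 in C2C12 cells (log2 fold change 5.02, SE 0.39, edgeR adjusted p = 1.04e-05) and from 9.9 and 8.79 CPM to 46 and 63 CPM in PMs (log2 fold change 2.49, SE 0.18, edgeR adjusted p = 1.64e-06). Day 3 libraries lay far above day 0 libraries in both cell types. Adamts8 had 0 and 1 counts at day 0 and 78 and 56 at day 3 in C2C12 cells, a ratio of summed counts of 134 (95% interval 23.6 to 5332), and Adamts15 had 1 and 1 and then 157 and 124, a ratio of 141 (95% interval 38.5 to 1166). In PMs Adamts8 went from 0.127 and 0.141 CPM at day 0 to 1.33 and 1.08 CPM at day 6 (3.07, edgeR adjusted p = 0.00083 on the log2 scale), and Adamts15 from 0.699 and 0.732 CPM to 1.09 and 6.29 CPM at day 3, with 1 library close to the day 0 values (2.31, edgeR adjusted p = 0.0343). Adamts1, a proteoglycanase with broad expression, rose from 26.2 and 26.4 CPM to 103 and 64.8 CPM in C2C12 cells and from 21.2 and 25.2 CPM to 85.2 and 66 CPM in PMs at day 3 (log2 fold changes 1.63 and 1.65).

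Adamts4, the other main aggrecanase, went in opposite directions. In C2C12 cells it rose from 17.6 and 21 CPM at day 0 to 91.2 and 101 CPM at day 3 (log2 fold change 2.27, SE 0.36, edgeR adjusted p = 0.000904), and in PMs it fell from 112 and 103 CPM to 38.7 and 57.7 CPM (log2 fold change -1.22, SE 0.22, edgeR adjusted p = 0.000851). In neither cell type did the days overlap. Adamts7, a protease that cuts cartilage oligomeric matrix protein, rose from 29.8 and 44.6 CPM to 95 and 87.6 CPM at day 6 in C2C12 cells (1.26, edgeR adjusted p = 0.0227 on the log2 scale) and fell from 59.8 and 57.2 CPM to 20.02 and 29.7 CPM in PMs (-1.30, edgeR adjusted p = 0.000391). These 2 were the only members called up in one cell type and down in the other, and the difference was called for both at both days. Adamts14 rose from 65.7 and 50.4 CPM to 163 and 177 CPM in C2C12 cells (1.51, edgeR adjusted p = 0.000857) and had 93.1 and 98.5 CPM and then 55 and 72.3 CPM in PMs (-0.65, edgeR adjusted p = 0.0106). Its difference between the cell types was -2.14 (PM minus C2C12, log2, standard error 0.32, edgeR adjusted p = 0.00017). Adamts2, the other main procollagen N-proteinase, rose in both, from 16.7 and 10.8 CPM to 61.8 and 72 CPM and from 8.5 and 7.41 CPM to 23 and 36.3 CPM at day 6.

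Of the other Adamts genes, 4 of 6 tested were called up at both days in each cell type. Over all genes 16% and 17.1% were called up in C2C12 cells and 17.5% and 20.2% in PMs. Adamts7 was called down in PMs at day 6, where 15.3% of all genes were. Adamts17 in C2C12 cells and Adamts16 in PMs could pass the filter only through the groups in which they were high. Adamts16, known from kidney and gonad, rose from 0.901 and 0.124 CPM to 31.6 and 15.5 CPM in C2C12 cells (5.60, edgeR adjusted p = 0.00607), and in PMs from 0 and 1 counts to 61 and 111 counts, a ratio of 231 (95% interval 40.9 to 9172). Adamts17, linked to short stature and eye defects, had 2 and 0 counts and then 32 and 59 counts at day 3 in C2C12 cells, a ratio of 45.5 (95% interval 12.2 to 381), and rose in PMs from 0.297 and 0.31 CPM to 1.6 and 1.06 CPM (2.07, edgeR adjusted p = 0.000562). Adamts12 rose from 0.478 and 1.07 CPM to 2.41 and 7.02 CPM in C2C12 cells and from 5.59 and 4.2 CPM to 69.1 and 31.4 CPM in PMs at day 6, with replicates over 2 times apart at that day in each cell type.

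The gelatinase Mmp2 and the membrane-type Mmp15 were the main risers among the Mmp genes. Mmp2, which cuts denatured collagen and collagen IV of the basement membrane, was at 75 and 44.3 CPM at day 0 and at 435 and 359.8 CPM at day 3 in C2C12 cells (log2 fold change 2.69, SE 0.64, edgeR adjusted p = 0.00787). In PMs it was at 21.7 and 21.7 CPM at day 0, 38.5 and 42 CPM at day 3 and 118 and 138 CPM at day 6 (log2 fold change 2.50, SE 0.16, edgeR adjusted p = 6.03e-07 at day 6). Each later group of PMs lay above the one before it. Mmp15 was at 4.08 and 2.68 CPM at day 0 and 141 and 146 CPM at day 3 in C2C12 cells (log2 fold change 5.37, SE 0.47, edgeR adjusted p = 2.17e-05), and at 83.8 and 68.2 and 161 and 178 CPM in PMs (1.10, edgeR adjusted p = 2.30e-05). PMs thus held at day 0 a level that C2C12 cells lacked. Mmp14 was at 315 and 334 CPM at day 0 and 616 and 672 CPM at day 3 in C2C12 cells (log2 fold change 0.95, SE 0.36, edgeR adjusted p = 0.0571) and at 113 and 111 and 81 and 91.9 CPM in PMs (-0.43, edgeR adjusted p = 0.016). In the first the days did not overlap, but the threshold was missed.

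Low Mmp genes changed too. The gelatinase Mmp9 was at 0.148 and 0.0845 CPM at day 0 and 2.78 and 0.945 CPM at day 6 in PMs (3.86, edgeR adjusted p = 0.00834), and at 1.21 and 0.231 and 0.154 and 0.20 CPM in C2C12 cells (-2.02, edgeR adjusted p = 0.125), where 1 day 0 library held most of the counts. Mmp10, a stromelysin, had 2 and 2 counts at day 0 and 28 and 5 at day 6 in PMs, a ratio of 11.1 (95% interval 3.94 to 43). Mmp3, the other stromelysin, had 20 and 35 counts at day 0 and 0 and 1 at day 3 in PMs, a fall by a ratio of 50.03 (95% interval 8.61 to 2012). Mmp24, a membrane-type Mmp known from neurons, had 14 and 32 counts at day 0 and 2 and 3 at day 3 in C2C12 cells, a fall by a ratio of 9.2 (95% interval 3.67 to 29.7). The intervals cover counting error only.

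Of 8 tested catalytic Adam genes in C2C12 cells 1 was called up and 1 down at day 3, where 16% and 12.7% of all genes were, and of 9 in PMs likewise 1 and 1, where 17.5% and 14.9% were. These counts are close to those shares. Adam8 fell in both cell types, from 19.1 and 22.5 CPM to 7.08 and 6.92 CPM at day 3 in C2C12 cells (log2 fold change -1.61, SE 0.44, edgeR adjusted p = 0.015) and from 17.5 and 18.4 CPM to 2.64 and 2.15 CPM in PMs (log2 fold change -2.96, SE 0.22, edgeR adjusted p = 1.81e-06). It was the only member called down in both. Adam19, known from neural crest and heart, rose in C2C12 cells from 75.9 and 106 CPM to 218 and 262 CPM (log2 fold change 1.36, SE 0.26, edgeR adjusted p = 0.00234) and was at 113 and 124 and 99.5 and 119 CPM in PMs (-0.17, edgeR adjusted p = 0.269). Adam12, known from myoblast fusion and regenerating muscle, was called in PMs at day 6, where 1 of 2 libraries carried most of the rise (21.5 and 26.2 CPM at day 0, 72.8 and 37.3 CPM at day 6, 1.14, edgeR adjusted p = 0.00898). In C2C12 cells it was at 62.6 and 64.7 and 34.6 and 77.5 CPM (-0.22, edgeR adjusted p = 0.769). The sheddases Adam10 and Adam17 were lower in PMs at day 3 by less than 2-fold, with 101 and 125 CPM against 170.2 and 154 CPM for Adam10 (-0.57, edgeR adjusted p = 0.00473) and 76.9 and 83.3 CPM against 119 and 110.4 CPM for Adam17 (-0.57, edgeR adjusted p = 0.000749), and gave log2 fold changes of -0.00 and -0.01 in C2C12 cells. Adam33 rose in PMs from 0.0424 and 0.338 CPM to 2.98 and 4.34 CPM at day 6 (4.28, edgeR adjusted p = 0.000221) and had at most 2 counts in any C2C12 library. Adam23, a non-catalytic Adam that binds Lgi proteins, rose in PMs from 1.57 and 1.75 CPM to 11.1 and 11.4 CPM (2.69, edgeR adjusted p = 1.36e-05). Adam1b, with 2 and 1 and then 15 and 9 counts at day 3 in PMs (ratio 8.79 (95% interval 2.67 to 45.6)), Adam4 and Adam28, called down in C2C12 cells at 1 day each (-1.51, edgeR adjusted p = 0.0211 at day 3 and -1.78, edgeR adjusted p = 0.0165 at day 6), are of low level, and reads of the first may be shared with its close relative Adam1a.

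The inhibitors moved apart from each other. Timp3 rose in PMs from 5.28 and 5.3 CPM at day 0 to 25.5 and 29.1 CPM at day 3 and 106 and 82.5 CPM at day 6 (log2 fold change 4.09, SE 0.19, edgeR adjusted p = 9.40e-08 at day 6), and in C2C12 cells it was at 269 and 377, 190.2 and 205 and 147 and 213 CPM (-0.88, edgeR adjusted p = 0.104 at day 6). Every day 6 library of C2C12 cells lay below both day 0 libraries. Timp1 rose in PMs from 117 and 123 CPM to 352 and 313 CPM (log2 fold change 1.41, SE 0.20, edgeR adjusted p = 0.000112) and overlapped between days in C2C12 cells (518 and 337 CPM and 241 and 434 CPM, -0.38, edgeR adjusted p = 0.542). Timp2 rose in C2C12 cells from 754 and 771 CPM to 1817 and 1519 CPM (log2 fold change 1.09, SE 0.34, edgeR adjusted p = 0.0251) and gave 0.34, edgeR adjusted p = 0.0672 in PMs. Timp4 was called up in C2C12 cells from a low level (0.113 and 0.107 CPM to 0.694 and 0.568 CPM, 2.47, edgeR adjusted p = 0.00427).

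**Figure D3:**
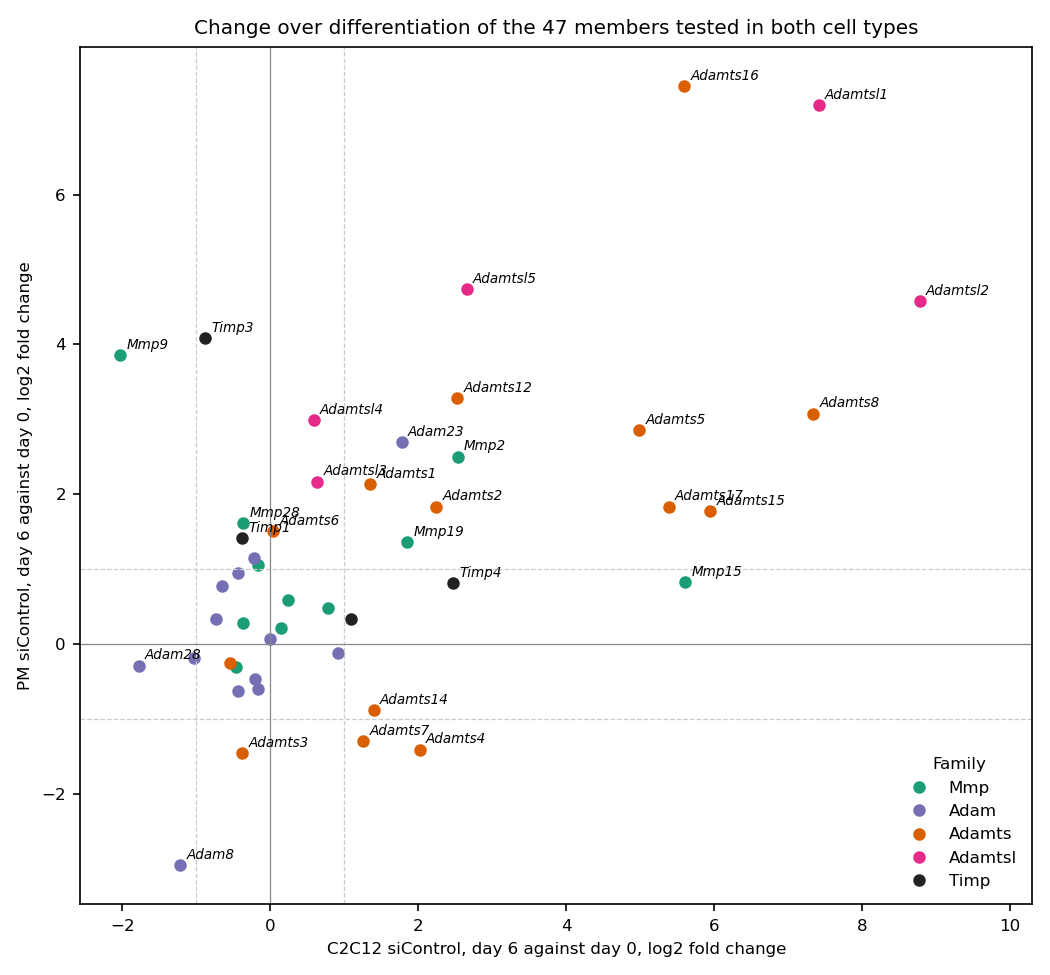
Log2 fold change between day 0 and day 6 in siControl cells, in C2C12 cells (x axis) and PMs (y axis), for the 47 members tested in both, with 1 point per gene coloured by family and dashed lines at -1 and 1. Adamts and Adamtsl genes fill the upper right, Timp3 and Mmp9 the upper left, and Adamts4, Adamts7, Adamts14 and Adam19 lie above 0 in C2C12 cells and below 0 in PMs. Fitted values of Adamts8, Adamts15, Adamts16 and Adamts17 rest on 3 counts or fewer at day 0 in one of the cell types and are no sizes.

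Between days 3 and 6 the PMs went on changing. There 7 of 53 members were called up and 0 down, where 2.22% and 0.582% of all genes were called. They were Timp3 (1.77, edgeR adjusted p = 0.00111 on the log2 scale), Mmp2 (1.66, edgeR adjusted p = 0.00111), Adamtsl1 (1.65, edgeR adjusted p = 0.033), Mmp19 (1.64, edgeR adjusted p = 0.00823), Adamtsl4 (1.23, edgeR adjusted p = 0.0469), Timp1 (1.15, edgeR adjusted p = 0.0107) and Adamtsl5 (1.11, edgeR adjusted p = 0.040). Mmp19, a secreted basement membrane protease, went from 1.71 and 2.22 to 5.56 and 6.78 CPM. The 7 calls were reduced to 2 with all 24 libraries in one fit and to 0 and 1 without siControl replicate 1 and 2. In C2C12 cells 0 of 49 were called in either direction, where 0% of all genes were, with 1 member at an unadjusted p under 0.05 and 0 called by DESeq2.

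**Figure D4:**
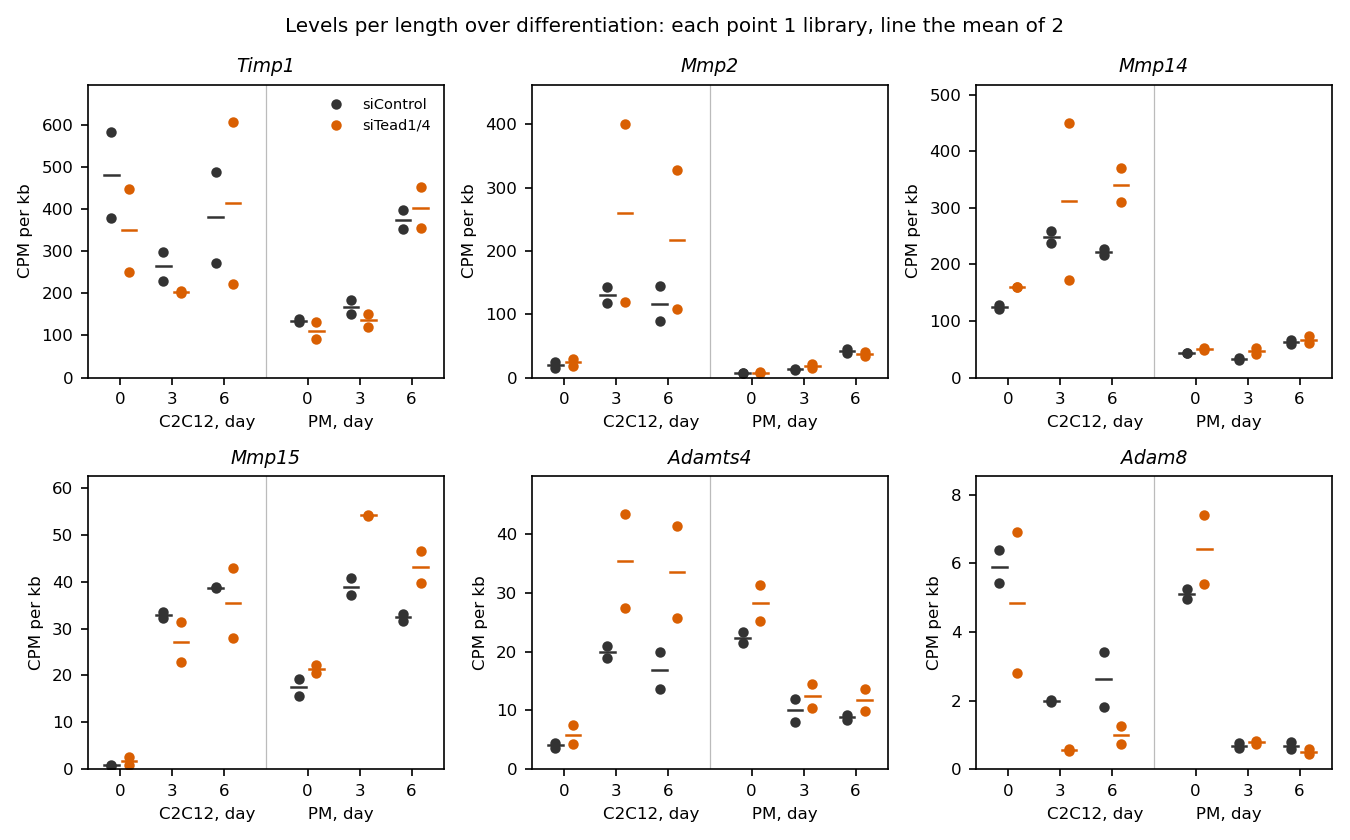
Levels per length (CPM per kb) of 6 members over days 0, 3 and 6 in C2C12 cells (left of each panel) and PMs (right), 1 point per library, black for siControl and orange for siTead1/4, with a line at the mean of 2. Adam8 falls in both cell types, Adamts4 rises in C2C12 cells and falls in PMs, Mmp15 starts near 0 in C2C12 cells only, and the 2 silenced C2C12 libraries at day 3 lie far apart for Mmp2 and Mmp14.

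The lists of risers overlapped. Of the 47 members tested in both cell types, 21 were called up at day 3 or 6 in C2C12 cells and 23 in PMs, and 15 were shared, 71.4% of the first list and 65.2% of the second. The same overlap over all genes was not counted, and members near 0 at day 0 could pass the filter only through groups in which they were high. The overlap is thus a description and no trait of the family. The shared genes were Adamts1, Adamts2, Adamts5, Adamts8, Adamts12, Adamts15, Adamts16, Adamts17, Adamtsl1, Adamtsl2, Adamtsl5, Mmp2, Mmp15, Mmp19 and Adam23. The sizes differed. The change over differentiation was called as different between the cell types for 14 of 57 members at day 3 and 19 at day 6, where 11.2% and 12.7% of all genes were called. Mmp15 and Adamtsl2 rose more in C2C12 cells (PM minus C2C12 at day 6, -4.76, edgeR adjusted p = 1.71e-06 and -4.19, edgeR adjusted p = 0.0193), and Timp3 went up in PMs relative to C2C12 cells (4.99, edgeR adjusted p = 2.94e-06). These calls fell to 4 at day 3 without either siControl replicate and to 5 and 6 at day 6. The calls in C2C12 cells fell from 23 to 10 at day 3 without either siControl replicate and to 9 and 10 at day 6, while those of PMs stayed between 18 and 27. Cell type, strain and medium cannot be told apart. The library kept no strand. Besides Timp3, Adamts9, Adam15, Mmp19, Mmp24, Adam19, Mmp28, Adamts7 and Adam8 share up to 1381, 1263, 789, 637, 587, 465, 122 and 46 exon bases with another gene.

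Before differentiation, levels of members differed between the cell types. At day 0 in siControl cells 29 of 57 members were called between PMs and C2C12 cells, 15 higher in PMs and 14 lower, where 26.8% of all genes were called. Members near 0 in one cell type, such as Adamts9 and Adamts20 in C2C12 cells, could pass the filter only through the libraries in which they were high. The count is thus a description. Adamts20 had 490 and 270 counts in PMs and 0 in C2C12 cells, at least 138-fold higher against a floor of 3 counts per library, and Adamts9, also a versicanase, had 121 and 96 against 0, at least 40.3-fold higher. Both are proteoglycanases with at most 8 counts in any C2C12 library. Mmp15 was at 83.8 and 68.2 CPM against 4.08 and 2.68 CPM (log2 fold change 4.50, edgeR adjusted p = 2.88e-08) and Adamts4 at 112 and 103 CPM against 17.6 and 21 CPM (2.48, edgeR adjusted p = 1.24e-05). Timp3 was much lower, at 5.28 and 5.3 CPM in PMs against 269 and 377 CPM in C2C12 cells (-5.93, edgeR adjusted p = 7.28e-09). Timp1 was lower in PMs too (-1.84, edgeR adjusted p = 0.00139), as were Mmp14 (-1.53, edgeR adjusted p = 0.000345), Mmp2 (-1.46, edgeR adjusted p = 0.0261), Adam12 (-1.42, edgeR adjusted p = 0.030), Adamtsl3 (-3.84, edgeR adjusted p = 9.15e-06) and Mmp28 (-3.61, edgeR adjusted p = 1.54e-07). Mmp24 had 14 and 32 counts in C2C12 cells and 0 in PMs, at least 6.63-fold lower in PMs. Myotube markers were already present in PMs at day 0, at sums of 7198 to 8020 CPM against 18.5 to 63.8 CPM in C2C12 cells, and their part in these differences was not tested. The calls numbered 20 without siControl replicate 1 or 2.

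Other genes of pericellular proteolysis were listed beside the family, as activators, inhibitors, receptors and partners of the enzymes. Of these, 27 were tested in C2C12 cells and 32 in PMs. After silencing 1 was called, Tspan33, a tetraspanin that guides Adam10, which fell in C2C12 cells at day 3 (-1.36, edgeR adjusted p = 0.0322), where 1.08% of all genes were called down. Over differentiation 4 rose and 4 fell at day 3 and 3 rose and 4 fell at day 6 in C2C12 cells, and 6 and 6, then 12 and 5 in PMs. Over all genes 16% and 12.7%, then 17.1% and 14% were called up and down in C2C12 cells and 17.5% and 14.9%, then 20.2% and 15.3% in PMs, so that the list was near these shares in C2C12 cells and in PMs at day 3. Plaur, the urokinase receptor, fell in both cell types (day 3, -4.75, edgeR adjusted p = 3.55e-05 in C2C12 cells and -2.68, edgeR adjusted p = 3.84e-05 in PMs), as did Pcolce2, an enhancer of procollagen processing (-2.34, edgeR adjusted p = 0.000208 and -3.34, edgeR adjusted p = 3.89e-07). The tetraspanins Tspan15 and Tspan17, partners of Adam10, rose in both at day 3 (1.28, edgeR adjusted p = 0.014 and 2.35, edgeR adjusted p = 1.20e-05 for Tspan15). Thbs2, a matrix protein that binds Mmp2, and the proprotein convertase Pcsk5 rose in PMs at day 6 (2.66, edgeR adjusted p = 1.40e-06 and 3.23, edgeR adjusted p = 8.89e-07).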

How the data were processed

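RNA-seq was analysed in 24 libraries of 12 groups, C2C12 cells and PMs with siControl or siTead1/4 at days 0, 3 and 6, grouped by the sample labels. The authors deposited raw read counts per gene. Submitters' processing notes name CASAVA 1.8.2, TopHat2 2.0.10, Bowtie2 2.1.0, HTSeq 0.6.1 and DESeq2 1.8.1, with build mm9. The kit selected polyA RNA and kept no strand. How reads shared by overlapping or near-identical genes were counted is not given in the sources used here. Normalized columns and 36 columns of 12 libraries that match no sample were not used.

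Counts as deposited were fitted with edgeR 4.0.16 (R 4.3.3, TMM scaling, filterByExpr, quasi-likelihood test, Benjamini-Hochberg adjustment) for each cell type alone, and over all 24 libraries for differences between the cell types. Scripts were tested on simulated data. Total counts per library had a median of 39204772, and 2 replicates per group limit the precision. Intervals and floors of 3 counts per library cover counting error only. Gene lengths are those deposited. Alternatives were DESeq2 1.42.0, its size factors in edgeR, no filter, a replicate block, all 24 libraries in one fit, and leaving out each replicate.

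The members, gene lists and tests were chosen with earlier results of these data known. Named are all members called after silencing, the 8 largest called rises and falls of differentiation per cell type, all called between days 6 and 3 and, up to 8, in differences between the cell types, the 5 highest per length at day 0, the Timp genes, and Mmp2, Mmp9, Mmp14, Adam10, Adam12, Adam17 and Adam19. Further genes were named after their values were seen, among them Adamts14, Adamts20, Mmp15 and Adam8 after silencing.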

Additional observations from a re-analysis of the deposited data

Results flagged for a closer look

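The change of a member between day 0 and a later day in siControl cells was compared between the cell types with an interaction term in edgeR, and the members past the threshold are given with the difference of their log2 fold changes, PM minus C2C12. At day 3 the difference was negative for Adamts9 (-5.22), Adamts8 (-4.86), Mmp15 (-4.26), Adamtsl2 (-3.92), Adamts4 (-3.47), Adamts17 (-3.15), Adamts5 (-2.53), Adamts7 (-2.40), Adamts14 (-2.14), Mmp19 (-2.09), Adam19 (-1.52) and Mmp14 (-1.36). It was positive for Mmp24 (6.87) and Timp3 (3.08). At day 6 it was negative for Mmp15 (-4.76), Adamts9 (-4.68), Adamtsl2 (-4.19), Adamts17 (-3.52), Adamts4 (-3.41), Adamts7 (-2.53), Adamts14 (-2.26), Adamts5 (-2.12), Adam8 (-1.71) and Adam19 (-1.01). It was positive for Mmp10 (10.69), Mmp24 (6.77), Mmp9 (5.90), Timp3 (4.99), Adamtsl4 (2.43), Adamtsl5 (2.11), Mmp28 (2.01), Timp1 (1.82) and Adam15 (1.44). A negative value means a smaller rise or a larger fall in PMs, or a rise in C2C12 cells beside a fall in PMs, as for Adamts4 and Adamts7. The values of Adamts9, Adamts17 and Mmp24 at both days, of Adamts8 at day 3 and of Mmp10 at day 6 rest on a group with 3 counts or fewer in each library and depend on the prior count, so they are no measure of size. That of Mmp9 at day 6 rests on few counts at day 0 in PMs and mostly on 1 day 0 library in C2C12 cells. It is no measure of size either. Days 3 and 6 share the day 0 libraries.

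The silencing effect at day 3 also differed between the cell types by this test for Adamts15 (6.14) and Adamts8 (5.68), both of which fell in C2C12 cells alone by the threshold, the latter with 1 count in each silenced C2C12 library. Both calls were lost without siControl replicate 1 and without either siTead1/4 replicate, and that of Adamts8 also without siControl replicate 2.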

How the results depend on the processing

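Counts of called members in silencing comparisons moved most. Without the filter on low counts they were 2, 9 and 6 at days 0, 3 and 6 in C2C12 cells (0, 2 and 0 with it), 3 at days 3 and 6 in PMs (1 and 0), 7 and 4 for the difference in silencing at days 3 and 6 (2 and 0), and 23 for that in differentiation at day 3 (14). DESeq2 called 1, 4 and 1 in C2C12 cells, 2 at days 3 and 6 in PMs, and 2 for the difference in silencing at day 6. With all 24 libraries in one fit the counts were 1 and 6 at days 0 and 3 in C2C12 cells, 1 at day 0 in PMs (2), and 2 for PMs between days 6 and 3 (7). Leaving out each replicate in turn gave 0 to 3 and 0 to 5 for silencing in C2C12 cells at days 0 and 3, 0 to 2, 1 to 3 and 0 to 1 in PMs, and 0 to 1 and 0 to 5 for the difference in silencing at days 0 and 3. It gave 10 to 25 and 9 to 24 for C2C12 differentiation at days 3 and 6, 0 to 7 for PMs between days 6 and 3, and 4 to 17 and 5 to 20 for the difference in differentiation. A group left with 1 library was assumed to vary like the others.

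The labels do not say what a replicate number shares. Correlations of replicate differences ran from 0.0765 to 0.698 in PMs and from -0.368 to 0.634 in C2C12 cells. Between siControl and siTead1/4 of the same day they were 0.557, 0.521 and 0.698 in PMs and -0.305, 0.0779 and 0.634 in C2C12 cells at days 0, 3 and 6. With 2 pairs per comparison and no label this is a hint from the data only, and the fits given have no block. The replicate block gave 3 calls at day 3 (Adamts15 up and Adamtsl2 down gained) and 2 at day 6 (Adamts16 and Adamts17 up) for silencing in PMs, 1 for the difference in silencing at day 6, 10 for PMs between days 6 and 3 and 21 for the difference in differentiation at day 3. Of 173 calls of single members, 172 were kept with the block, 172 with DESeq2 size factors, 170 without the filter, 165 with DESeq2, 101 of 109 in the fit of all libraries, 91 and 95 without siControl replicate 1 and 2, and 165 and 164 without siTead1/4 replicate 1 and 2. No direction was reversed. Depth limits the members with a few counts per library, such as Adamts8, Adamts16 and Mmp10.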
